A study of Mus musculus with 2 samples.

Results

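The levels of 8 lipid-handling genes were followed across the cell classes of metastatic mouse lung: Apoe, Fabp1, Fabp4, Fabp5, Lpl, Cd36, Plin2 and Pparg. These members were listed by name and are 8 of the 29413 genes that both deposited count matrices list under the same Ensembl identifier. The study sequenced RNA of single sorted immune cells from metastatic lungs of female Balb/c mice, 7 days after labelling 4T1 cells had been given intravenously. The 4T1 line derives from a mouse mammary carcinoma and forms metastases in lung. In labelling systems of this kind the carcinoma cells release a fluorescent protein that neighbouring cells take up, so that cells of the metastatic niche can be sorted apart from those of the distal lung. There was 1 niche library and 1 distal library, so no difference between them has a replicate check, and no p-value is given. How many animals went into each library, how old they were and which sort gates were set is not given in the sources used here.

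Apolipoprotein E is a secreted lipid carrier that macrophages release with cholesterol and that lipoprotein receptors recognise. Lipoprotein lipase (Lpl) frees fatty acids from triglyceride-rich particles, Cd36 takes up fatty acids and oxidised lipoproteins at the cell surface, fatty acid binding proteins (Fabp1, Fabp4 and Fabp5) carry fatty acids inside the cell, and perilipin 2 (Plin2) coats lipid droplets. Pparg encodes the lipid-sensing nuclear receptor PPARγ, which alveolar macrophages, the cells that clear surfactant lipids from the airspace, need in order to mature.

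All 8 members are protein-coding genes whose exons overlap no gene that is missing from either gene list. In GRCm38, Apoe (ENSMUSG00000002985) lies on chromosome 7 at 19696109-19699188 on the minus strand and Fabp1 (ENSMUSG00000054422) on chromosome 6 at 71199827-71205023 on the plus strand. Fabp4 (ENSMUSG00000062515, 10204088-10208576, minus strand) and Fabp5 (ENSMUSG00000027533, 10012548-10016607, plus strand) lie near each other on chromosome 3. Lpl (ENSMUSG00000015568) lies on chromosome 8 at 68880491-68907448 on the plus strand, Cd36 (ENSMUSG00000002944) on chromosome 5 at 17781690-17888801 on the minus strand, Plin2 (ENSMUSG00000028494) on chromosome 4 at 86648386-86670060 on the minus strand and Pparg (ENSMUSG00000000440) on chromosome 6 at 115360951-115490399 on the plus strand. Transcripts of 5 Fabp5 pseudogenes, none of them in either gene list, match Fabp5 at 93.6% to 98.3% identity over at least 200 bases. Reads may be shared with these copies, so Fabp5 counts are uncertain. Plin2 has 1 such copy, at 93.9% identity.

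PPARγ binds DNA as a pair with the receptor RXR, at direct repeats of the half-site AGGTCA spaced by a single base. Fabp1, Plin2 and Apoe are shown because they stand for both patterns described below, Fabp1 and Plin2 being highest in alveolar and Apoe in the other macrophages. RefSeq promoter windows (GRCm38.p6, 250 bases before each start, searched on both strands) were found for 5 of the 8 members, and Fabp4, Fabp5 and Lpl had none. Capitals mark matches to the half-site, which reads TGACCT on the opposite strand.
Fabp1, chr6:71199629-71199826, plus strand: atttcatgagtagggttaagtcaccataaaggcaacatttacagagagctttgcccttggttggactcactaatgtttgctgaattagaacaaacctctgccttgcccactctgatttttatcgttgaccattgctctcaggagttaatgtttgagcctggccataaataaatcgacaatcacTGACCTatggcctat
Plin2, chr4:86670061-86670309, minus strand: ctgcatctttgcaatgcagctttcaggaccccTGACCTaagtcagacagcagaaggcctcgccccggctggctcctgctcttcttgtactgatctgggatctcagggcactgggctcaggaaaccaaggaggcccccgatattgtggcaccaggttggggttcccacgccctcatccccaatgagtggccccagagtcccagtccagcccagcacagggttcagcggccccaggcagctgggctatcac
Apoe, chr7:19699189-19699438, minus strand: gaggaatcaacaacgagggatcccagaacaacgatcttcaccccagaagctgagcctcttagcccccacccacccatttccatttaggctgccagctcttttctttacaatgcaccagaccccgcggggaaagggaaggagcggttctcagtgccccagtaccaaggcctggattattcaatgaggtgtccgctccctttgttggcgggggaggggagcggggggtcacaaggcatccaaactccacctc
The half-site AGGTCA was in 5 of the 9 windows of these members (those of Fabp1, Plin2 and Cd36 and 2 of 3 of Pparg, none of 3 of Apoe), and in 4607 (14%) of 32851 windows of that length. The Cd36 window starts at another place than the gene's annotated first base. In the Fabp1 window the matches begin 67 and 9 bases before the RefSeq start, and the second lies beyond the printed stretch. The full direct repeat, AGGTCA followed by any 1 base and AGGTCA again, holds the half-site at both ends, so its windows are also counted above. An exact match to it was in 11 windows (0.0335%), none of a member. Repeats with a differing base were not searched. In the printed Fabp1 stretch, TGACCT is followed by 1 base and then tggcct, which differs from TGACCT by 1 letter. These matches describe letters and say nothing of binding.

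Depth is given in UMIs (unique molecular identifiers), each of which stands for a captured RNA molecule. There were 3945 barcodes with 22323465 UMIs in the distal matrix and 3242 barcodes with 38036915 UMIs in the niche matrix. After filtering, 3539 distal and 3080 niche cells were left, with medians of 5794 and 11192.5 UMIs. They shared 4 barcodes. Alveolar macrophage-like cells numbered 1114 in the distal and 11 in the niche library, monocyte-derived macrophage-like cells 399 and 1752, interstitial macrophage-like cells 35 and 40, and non-classical monocyte-like cells 165 and 3. Of 12 alveolar macrophage markers, 11 had a UMI in the alveolar class, and Ear6 was at 0. Marco was low there, at 11.5 CPM against 6.25 CPM in other distal cells. By the stricter rule used to name classes, 0.83 of the list was present in each alveolar cluster. All 12 interstitial macrophage markers were detected in the interstitial class of each library. The libraries, both titled as immune cells, also held 86 distal and 22 niche endothelial-like cells. Several clusters stay out of the classes: those of mixed lineage (192 distal and 94 niche cells), of low UMI count (42 and 295), led by genes of another class (141 and 307) or with no name (31 and 49). Levels are given as CPM, the class's UMIs of a gene scaled to a fixed total, with 95% Poisson intervals, which cover counting error only, and are compared between classes for 1 gene at a time.

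Orders of levels are given among the 12 distal classes with at least 50 cells, and smaller classes are named apart. Apoe was highest in macrophages and monocytes other than the alveolar class. In the distal library its level was 7231 CPM (7137 to 7325) in monocyte-derived macrophage-like cells, 3832 CPM (3677 to 3991) in non-classical monocyte-like cells and 127 CPM (119 to 135) in alveolar macrophage-like cells. The interstitial macrophage-like class, which has under 50 cells and was added after the data had been seen, stood above these at 21887 CPM distal and 18615 CPM niche. Classical monocyte-like cells, 47 in number and all distal, had 1976 CPM, and 12 distal fibroblast-like cells had 5142 CPM (4482 to 5872). After thinning to 2000 UMIs, which 33 of 35 distal and 38 of 40 niche interstitial macrophage-like cells reached, each of these cells had an Apoe UMI, with a median of 40 Apoe UMIs per cell in each library. The medians were 9 in distal and 3 in niche monocyte-derived macrophage-like cells, 4 in non-classical monocyte-like cells and 0 in alveolar macrophage-like cells.

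**Figure D1:**
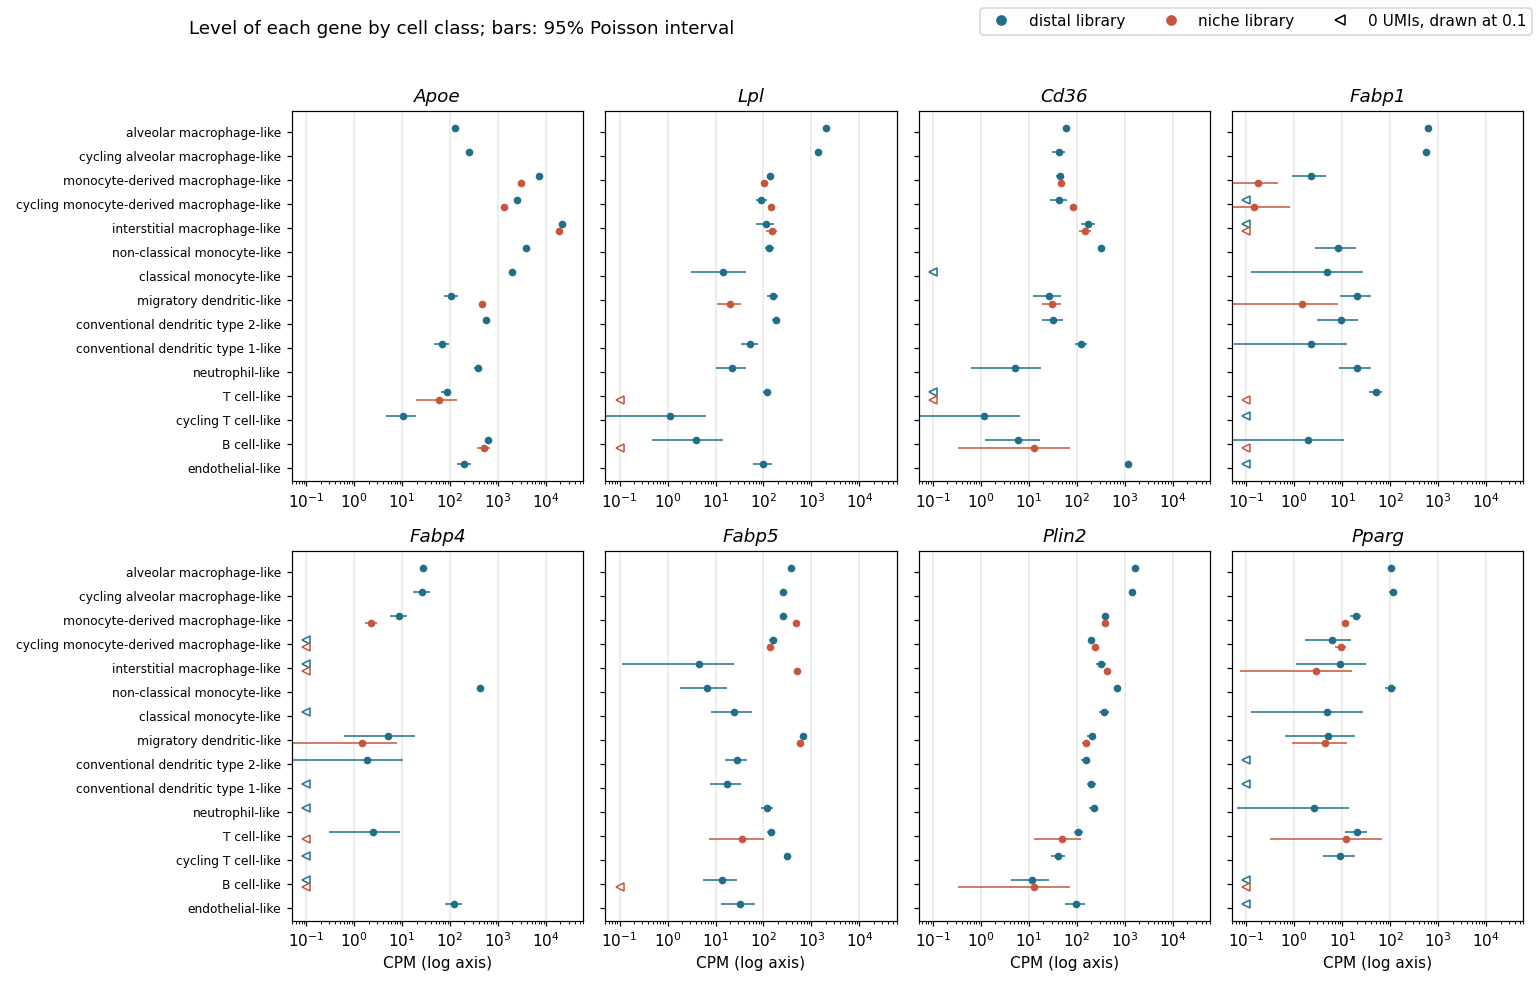
Level of each gene (CPM, log axis) by cell class in the distal and niche libraries, with bars for the 95% Poisson interval. Apoe is high in the interstitial, monocyte-derived and non-classical monocyte classes and low in the alveolar class, while Fabp1 and Lpl stand highest in the alveolar classes.

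The lipase and the uptake receptor had different leading classes. Lpl was at 2054 CPM (2023 to 2085) in distal alveolar macrophage-like cells and 1389 CPM in their cycling counterparts. The next classes, conventional dendritic type 2-like (186 CPM), migratory dendritic-like (154 CPM), monocyte-derived macrophage-like (135 CPM), non-classical monocyte-like (133 CPM), T cell-like (121 CPM) and endothelial-like (99.1 CPM) cells, had intervals that overlapped from each to the next. Such overlaps went on to the lowest class, cycling T cell-like cells at 1.15 CPM, so they mark no group of equal levels. Cd36 was instead highest in endothelial-like cells, at 1146 CPM, followed by non-classical monocyte-like cells at 315 CPM and conventional dendritic type 1-like cells at 123 CPM. Among smaller classes, 21 alveolar epithelial-like cells had 550 CPM and interstitial macrophage-like cells 172 CPM. Cd36 in alveolar macrophage-like (58.3 CPM) and monocyte-derived macrophage-like cells (43.6 CPM) was lower.

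Each fatty acid binding protein had its own leading class. Fabp1, known from liver and gut, was at 609 CPM in alveolar and 549 CPM in cycling alveolar macrophage-like cells, with overlapping intervals, and at 2.23 CPM in monocyte-derived macrophage-like cells. Fabp4, known from fat cells, capillaries and macrophages, was highest in non-classical monocyte-like cells at 415 CPM (365 to 470). Next came endothelial-like cells at 123 CPM, where 18 of 26 UMIs came from 1 cell, and alveolar macrophage-like cells at 27.7 CPM. Fabp5, the form of skin and many immune cells, was highest in migratory dendritic-like cells (680 CPM), then in alveolar macrophage-like cells (380 CPM), cycling T cell-like cells (302 CPM), cycling alveolar macrophage-like cells (254 CPM) and monocyte-derived macrophage-like cells (253 CPM). The leading level rests on few cells, since 5 of the 56 distal migratory dendritic-like cells held 53.4% of their Fabp5 UMIs. Non-classical monocyte-like cells, which led for Fabp4, held only 4 Fabp5 UMIs (6.64 CPM). Alveolar epithelial-like cells, 21 in all, had 1604 CPM of Fabp5.

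The droplet protein and the nuclear receptor were highest in alveolar cells too. Plin2 was at 1609 CPM in alveolar and 1415 CPM in cycling alveolar macrophage-like cells, at 702 CPM in non-classical monocyte-like cells, at 382 CPM in monocyte-derived macrophage-like cells and at 11.8 CPM in B cell-like cells. Pparg was at 102 CPM in alveolar macrophage-like cells, 114 CPM in cycling ones and 101 CPM in non-classical monocyte-like cells. These 3 intervals overlapped. It was at 19.1 CPM in monocyte-derived macrophage-like cells, and no UMI was found in distal B cell-like, endothelial-like or either type of conventional dendritic-like cells.

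A few classes held most UMIs of a gene. Alveolar macrophage-like cells held 38.2% of all distal UMIs, but 85.1% of those of Fabp1, 83.4% of Lpl, 70.8% of Pparg, 70.5% of Plin2 and 51.6% of Fabp5. Monocyte-derived macrophage-like cells held 14.5% of all distal UMIs and 52.2% of those of Apoe. In the niche library they held 60.3% of all UMIs, and their shares of Apoe (63.8%), Plin2 (64.3%) and Lpl (54.5%) were near it, while that of Fabp5 was 70.4%. The niche library as a whole held 25 UMIs of Fabp1, against 5934 in the distal library, and 17 of the 25 were in its 11 alveolar macrophage-like cells.

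Directly against monocyte-derived macrophage-like cells of the same library, distal alveolar macrophage-like cells were called higher for 5 members and lower for 1. A ratio was called where at least 20 UMIs stood behind it and its 95% interval, from counting error only, lay beyond 1.5-fold. By this rule 17.9% of 10326 genes were called higher and 9.66% lower, so calls are common between these classes. Fabp1 was higher by 7.99 on the log2 scale (interval 7.05 to 9.41, on 7 UMIs in the lower class), Lpl by 3.93 (3.79 to 4.07), Pparg by 2.40 (2.04 to 2.82), Plin2 by 2.07 (1.99 to 2.16) and Fabp4 by 1.67 (1.11 to 2.32). Apoe was 57.0-fold lower, a log2 ratio of -5.83 (-5.92 to -5.74). Fabp5 at 0.58 (0.47 to 0.70) and Cd36 at 0.41 (0.14 to 0.70) were not called. The Fabp5 ratio depends on which cells are counted: it was 0.02 without the second clustering, 0.27 in clusters with 10 or more cells in both libraries, and 0.84 after thinning, where it was called. Cd36 was called at 0.98 with at most 20% mitochondrial UMIs.

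**Figure D2:**
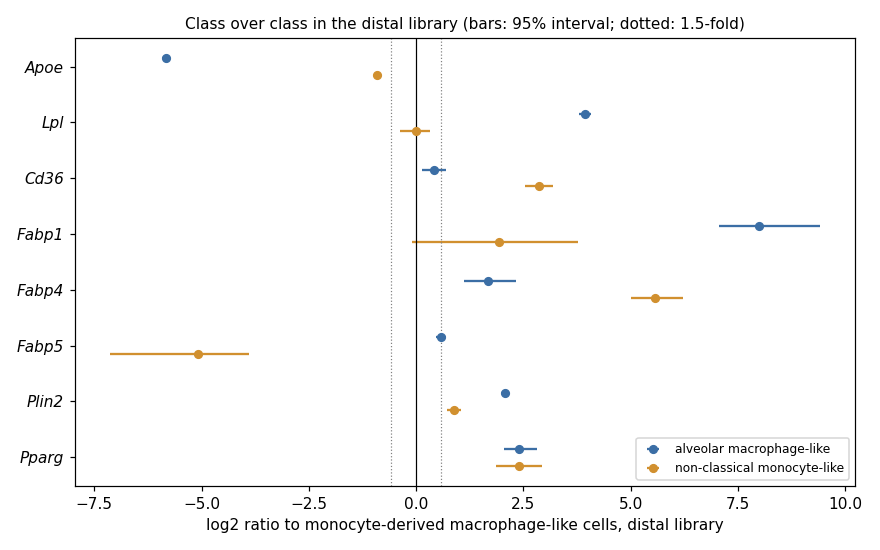
Log2 ratio of each gene to monocyte-derived macrophage-like cells of the distal library, for the alveolar macrophage-like and non-classical monocyte-like classes, with 95% intervals and dotted lines at 1.5-fold. Apoe lies at -5.83 in the alveolar class, and Fabp4 reaches 5.57 in non-classical monocyte-like cells.

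The genes of several related pathways, from lists that leave out the members, were also often higher in alveolar macrophage-like cells. Over all genes tested, 17.9% were called higher and 9.66% lower. Of uptake genes and lipases, 10 of 13 tested were called higher and 1 lower, with a median log2 ratio of 1.73 against 0.25 over all genes tested. Olr1, a receptor for oxidised lipoprotein, was at 215 against 2.87 CPM, and Sort1, a sorting receptor, at 298 against 7.64 CPM. The lipoprotein-associated phospholipase Pla2g7 was the gene called lower, at 27.7 against 418 CPM. Of lipid droplet genes, 10 of 15 were higher and 2 lower (median 1.66), with the droplet fusion protein Cidec at 166 against 0.637 CPM and the monoglyceride lipase Mgll at 208 against 6.37 CPM. Of cholesterol efflux genes, 7 of 14 were higher and 3 lower (median 1.10), and the exporter Abcg1 stood at 1469 against 104 CPM. PPARγ partners and targets counted 8 higher and 0 lower of 13 (median 0.94), among them Rxra, the partner receptor, at 69.8 against 10.5 CPM. Fatty acid oxidation counted 6 higher and 0 lower of 16 (median 0.56), with its gatekeeper Cpt1a at 179 against 30.3 CPM. Fatty acid activation counted 2 higher and 0 lower of 8 (median 0.55). Of the lipid-associated macrophage list, 8 of 13 were higher and 1 lower (median 1.59). It holds Atp6v0d2 and Itgax, which are also among the markers that named the alveolar class. The lists closest to the members had too few genes tested to compare. The FABP family had 1, which was lower, and apolipoproteins and carriers counted 1 higher and 1 lower of 2.

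Within the alveolar class, Lpl and Plin2 were found in nearly every cell and the other members in some. At 2000 UMIs per cell, 92.1% of 1104 cells had an Lpl UMI (95% exact interval 90.4 to 93.6%) and 94.4% a Plin2 UMI (92.9 to 95.7%). Fabp1 was seen in 52.1% (49.1 to 55.1%), Fabp5 in 36.5%, Pparg in 18.7%, Cd36 in 10.3%, Apoe in 10.1% and Fabp4 in 4.98%. Without thinning, at a median of 7103.5 UMIs, Fabp1 was seen in 76.6% and Lpl in 99.3% of 1114 cells. In distal T cell-like cells, a background for free RNA at a median of 2575.5 UMIs, the thinned shares were 0.995% for Fabp1, 2.99% for Lpl, 9.95% for Plin2, 4.98% for Apoe and 0.498% for Fabp4. Fabp5, at 14.4% of T cell-like cells, is also made by T cells. Apoe was uneven: 111 of the 1114 alveolar macrophage-like cells held 90% of the class's Apoe UMIs, and the highest thinned cell had 24.

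**Figure D3:**
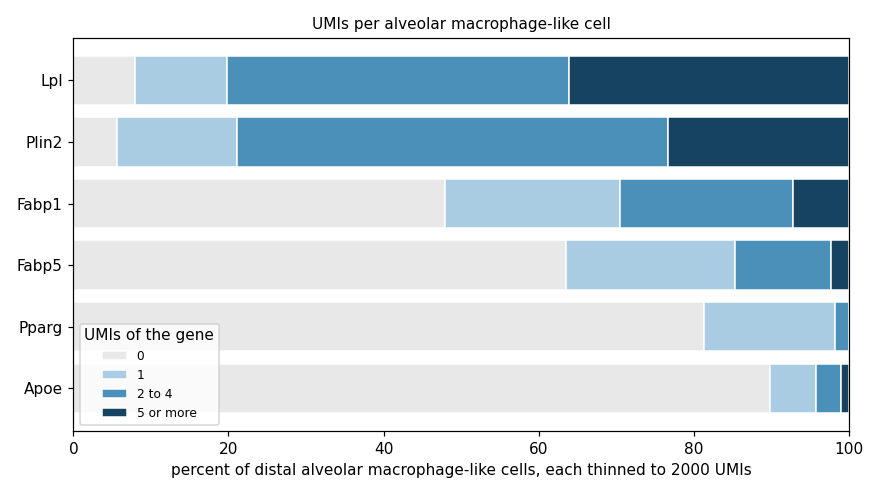
Percent of distal alveolar macrophage-like cells, each thinned to 2000 UMIs, by their number of UMIs of each gene. Lpl and Plin2 are seen in 92.1% and 94.4% of cells, Apoe in 10.1%.

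The alveolar clusters differed most in Fabp5, Fabp1, Cd36 and Fabp4. Over the 4 clusters with at least 30 cells, clusters 0.0 to 0.3, Fabp1 ran from 388 CPM in cluster 0.2, led by the carbonic anhydrase gene Car4, to 838 CPM in cluster 0.3. Fabp5 ran from 214 to 505 CPM with its highest level in cluster 0.2, Cd36 from 45.3 to 88.5 CPM, Fabp4 over a 1.88-fold range from 21.2 CPM and Apoe from 73.3 to 116 CPM. Lpl (1873 to 2413 CPM), Plin2 (1346 to 1764 CPM) and Pparg (91.9 to 120 CPM) varied by less than 1.5-fold. Between cluster 0.2 and cluster 0.0, a pair chosen with the clusters in view, the log2 ratios of Fabp1, which leads cluster 0.0, and Cd36 were -1.01 and -0.95. They are a description, and 0.923% of all genes lay past the same limits on the lower and 1.73% on the higher side. The small cluster 0.4 of 19 cells had 1452 CPM of Apoe, of which 110 of 294 UMIs were in 1 cell. Across single alveolar macrophage-like cells no pair of members had a Spearman rho beyond 0.16 in size, in sparse counts. Cycling alveolar macrophage-like cells were called higher than the others for Apoe alone among the members (log2 ratio 0.97), against 6.54% of all genes higher and 0.713% lower.

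Non-classical monocyte-like cells, the patrolling monocytes of the vessels, had Fabp4 and Cd36 with Apoe. Against monocyte-derived macrophage-like cells, Fabp4 (5.57, interval 5.02 to 6.22), Cd36 (2.85, 2.53 to 3.18), Pparg (2.41, 1.87 to 2.94) and Plin2 (0.88, 0.71 to 1.04) were called higher. Fabp5 (-5.09, -7.13 to -3.89) and Apoe (-0.92, -0.98 to -0.85) were called lower, so that 4 members were higher and 2 lower, against 10.7% and 5.71% of all genes. Plin2 was no longer called at 0.59 with Leiden resolution 2.0 and at 0.43 without the second clustering, nor Apoe at -0.52 with at most 20% mitochondrial UMIs and at -0.63 without the second clustering. Fabp4 was seen in 46.2% of 132 thinned cells (37.5 to 55.1%) and in 57.0% of all 165, at a median of 2790 UMIs. Cd36 was seen in 40.2% of thinned cells. Against alveolar macrophage-like cells, 3 members were higher and 4 lower, against 8.59% and 9.35% of all genes, and the log2 ratio of Pparg was 0.00 (-0.41 to 0.37). The alveolar markers sum to 948 CPM in non-classical monocyte-like cells, with Krt79 and Marco at 0, and Fabp1, whose distal UMIs were mostly in alveolar macrophage-like cells, was at 8.30 CPM. The sum also counts any of these markers, such as Ear2 and Itgax, that the monocytes make themselves. The part of alveolar macrophage RNA in the Pparg and Plin2 levels was not tested. Among listed genes the lipoprotein receptor Lrp1 (259 against 69.7 CPM) and the transcription factors Klf4 (523 CPM, 5.23-fold) and Cebpb (3344 against 723 CPM) were higher than in monocyte-derived macrophage-like cells. Of the lipid-associated macrophage list 1 of 13 was higher and 5 lower, Spp1 and Trem2 among the latter.

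As a class, interstitial macrophage-like cells had high Apoe, and more Cd36 than monocyte-derived macrophage-like cells. Which cells fall in this class depends on the clustering. Its 35 distal and 40 niche cells became 118 and 126 without the second clustering, and 116 and 58 at Leiden resolution 0.5. How its levels move with these changes was not tested. Against monocyte-derived macrophage-like cells, Apoe was higher by 1.60 (1.55 to 1.64) in the distal and 2.65 (2.62 to 2.69) in the niche library, and Cd36 was 3.99-fold and 3.17-fold higher. Apoe and Cd36 were the only members called higher in either library, where 3.69% and 4.63% of all genes were called higher. Cd36 was uneven: 6 distal cells held 26 of 39 UMIs and 6 niche cells 29 of 52, with a thinned median of 0 in each library. Among clusters of the monocyte-derived class with at least 30 cells, Cd36 reached 96.3 CPM in distal cluster 10.2 and 109 CPM in niche cluster 10.0. Distal Fabp5 was lower by a log2 ratio of -5.26 (-11.15 to -3.36), on 1 UMI, against 2.67% of all genes lower in that library and 2.49% in the niche library, where 0 members were called lower. Fabp1 and Fabp4 had 0 UMIs in all 75 cells. Neither was called against monocyte-derived macrophage-like cells, whose levels were also low, so this shows no difference from them. Endothelial-like cells, against alveolar macrophage-like cells, were called higher for Cd36 (4.30) and Fabp4 (2.17) and lower for 5 members, against 11.2% and 7.9% of all genes. Cd36 was seen in 81.8% of 44 thinned endothelial-like cells, but Fabp4 in 3 of 86, and in the niche library 78 of 85 endothelial Fabp4 UMIs came from 1 cell.

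Niche and distal monocyte-derived macrophage-like cells differed in Apoe and Fabp5. Apoe was at 2958 CPM (66762 UMIs) in the niche and 7231 CPM (22707 UMIs) in the distal library, 2.44-fold lower in the niche with a log2 ratio of -1.29 (-1.31 to -1.27). For Fabp5 the levels were 475 CPM (niche) and 253 CPM (distal), and the log2 ratio was 0.90 (0.80 to 1.01). Fabp4 was called lower (-1.94, -2.63 to -1.20) at 2.26 and 8.60 CPM, on 51 and 27 UMIs, of which 16 of the 27 were in 1 distal cell, and was not called at -0.55 (-2.35 to 2.11) after thinning. Hence 2 members were lower and 1 higher, against 2.75% and 1.52% of 11190 genes. Plin2 differed by -0.01 (-0.09 to 0.08), Cd36 by 0.12 (-0.14 to 0.39), Lpl by -0.42 (-0.57 to -0.26) and Pparg by -0.73 (-1.13 to -0.29), none called, and Fabp1 had too few UMIs. Thinned shares of cells gave the same order, with Apoe in 86.5% of distal and 75.8% of niche cells and Fabp5 in 11.2% and 26.9%, at medians of 7211 and 11767 UMIs. The libraries were counted with different software and gene annotation, and this cannot be told apart from the group.

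The class was made of different clusters in each library, and the Apoe difference was smaller within clusters. Clusters 2.1 and 10.2, chosen as those with most distal cells, held 183 of 399 distal cells (45.9%) and 123 of 1752 niche cells (7.02%). Cluster 1.0, cluster 1.1 and cluster 1.2, those with most niche cells, held 842 (48.1%) of the niche cells. Cluster 2.1 had 12538 CPM of Apoe in the distal and 8629 CPM in the niche library, whereas in cluster 1.2 it had 4716 and 4004 CPM. Clusters of mixed lineage were left out of this comparison, among them cluster 7.1 with 37 distal and 63 niche cells. Within the 6 other monocyte or macrophage clusters with at least 30 cells in both libraries, the Apoe ratio was below 0 in all 6, from -0.68 to -0.23, and was called in none. Of all genes, 1.22% were called in cluster 1.2, 2.21% in cluster 2.0, 1.64% in cluster 2.1, 2.33% in cluster 7.0, 1.71% in cluster 8.1 and 2.11% in cluster 10.1. In 3 of the 6 (1.2, 2.1 and 7.0) cells belong to the monocyte-derived class, while clusters 2.0 and 8.1 stand outside the classes and cluster 10.1 is the interstitial class. T cell genes such as Trbc2 were among the genes leading cluster 7.0. In cluster 2.0, Lpl was called lower in the niche (-1.58, -1.85 to -1.30). How far the mix of clusters accounts for the Apoe difference of the class was not tested.

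The Fabp5 ratio was above 0 in all 6 clusters and called higher in 3 of 5 with enough UMIs, at 1.04 in cluster 1.2, 1.38 in cluster 2.1 and 6.23 in cluster 10.1, the interstitial class (1.27% of genes higher and 0.845% lower there), but single cells weigh on these values. In the distal library 75 of 122 Fabp5 UMIs of cluster 1.2, 103 of 197 of cluster 2.1 and 95 of 133 of cluster 7.0 came from 1 cell each. The niche value of cluster 10.1 rests on 1 cell with 154 of 174 UMIs, and was 61.0 CPM without that cell instead of 498 CPM. The tenth of monocyte-derived macrophage-like cells with most Fabp5 held 92.2% of its UMIs in the distal and 74.7% in the niche library.

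**Figure D4:**
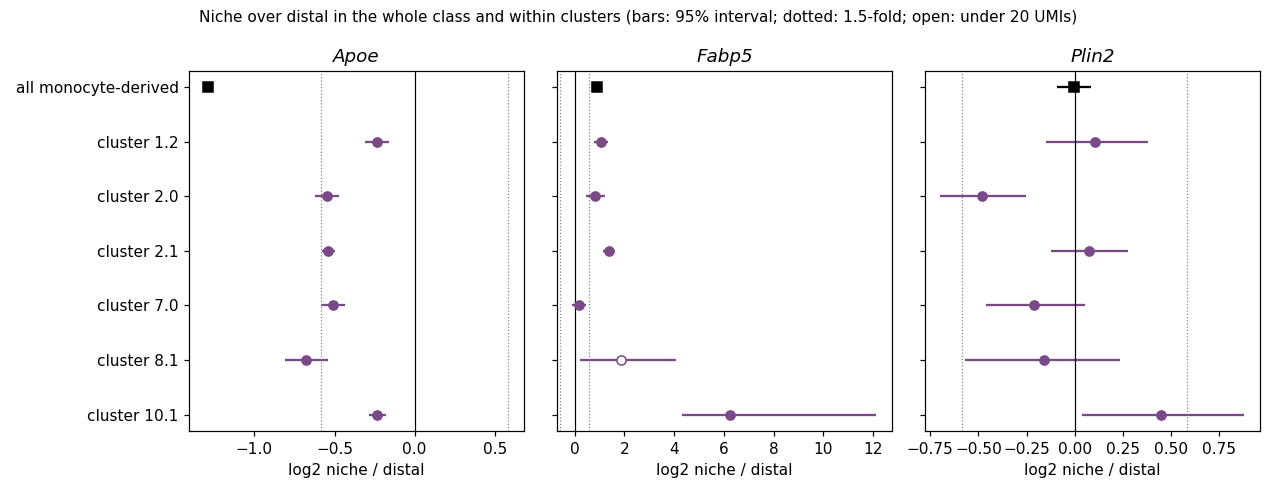
Log2 ratio of niche over distal for members in the whole monocyte-derived class and within clusters, with 95% intervals, dotted lines at 1.5-fold and open symbols under 20 UMIs. Apoe lies at -1.29 in the class and between -0.68 and -0.23 within clusters.

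Across niche clusters of the monocyte-derived class with at least 30 cells, Plin2 varied less than Apoe, Fabp5, Lpl, Cd36 and Pparg. Over 14 clusters Apoe ran from 1360 CPM in cluster 5.1 to 8629 CPM in cluster 2.1, and Fabp5 from 60.1 CPM in cluster 5.2 to 1044 CPM in cluster 1.1. Plin2 ran from 280 to 506 CPM, Cd36 from 12.3 to 109 CPM and Pparg from 4.21 to 19.8 CPM. Lpl ran from 30.2 CPM in cluster 12.0 to 240 CPM in cluster 5.2, where Fabp5 was lowest. Among the listed genes of uptake, droplets, PPARγ, efflux, activation and oxidation few were called between niche and distal cells of this class. The counts were 0 higher and 1 lower of 13 uptake genes and lipases, 0 and 1 of 12 droplet genes, 0 and 1 of 12 PPARγ partners (Rxra, at 3.85 against 10.5 CPM), and 0 of 14 efflux, 8 activation and 15 oxidation genes. Medians of these lists lay between -0.08 and 0.10, against -0.02 over all genes. Of 3 apolipoproteins and carriers tested, all 3 were called. Apoc1 (4.39 against 13.4 CPM) and the phospholipid carrier Pltp (138 against 261 CPM) were lower. Apoc2, the activator of lipoprotein lipase, was higher (79.3 against 0.318 CPM), but its exons overlap a gene that only the distal gene list holds, so that the counting cannot be told apart from the group. Of the lipid-associated macrophage list, Spp1 was higher (255 against 141 CPM) and Cd9 was among 2 genes that were lower (71.3 against 141 CPM).

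A small group of 62 cells, cluster 2.3, combined Apoe, Fabp5 and Plin2, and is described because of these levels. It was led by Gpnmb, Syngr1, Fabp5 and Trem2, reached too few markers of any class to be named, and held 19 distal and 43 niche cells. Apoe was at 6761 CPM in its distal and 10187 CPM in its niche cells, Fabp5 at 3276 and 3007 CPM and Plin2 at 1483 and 1515 CPM. Against niche monocyte-derived macrophage-like cells, Fabp5 (2.66, 2.58 to 2.74), Plin2 (1.99, 1.88 to 2.10), Apoe (1.78, 1.74 to 1.83) and Fabp4 (17.2-fold, with 16 of 18 UMIs in 1 cell) lay higher, and Lpl (-1.22, -1.96 to -0.62) lower. Since the cluster was picked for its levels and is led by Fabp5, these ratios are a description, beside 4.27% of all genes past the same limits on the higher and 2.39% on the lower side. In its niche cells Fabp5 was seen in 27 of 41 thinned cells (65.9%) and Plin2 in 90.2%. Since Gpnmb and Trem2 led the cluster, their list is a description too: 10 of 13 lipid-associated genes were higher and 0 lower. The cholesterol exporter Abca1 (89.1 against 18.1 CPM), the lysosomal transporter Npc1 (106 against 30.5 CPM) and the cholesterol esterifying enzyme Soat1 (231 against 94.5 CPM) were also higher.

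**Figure D5:**
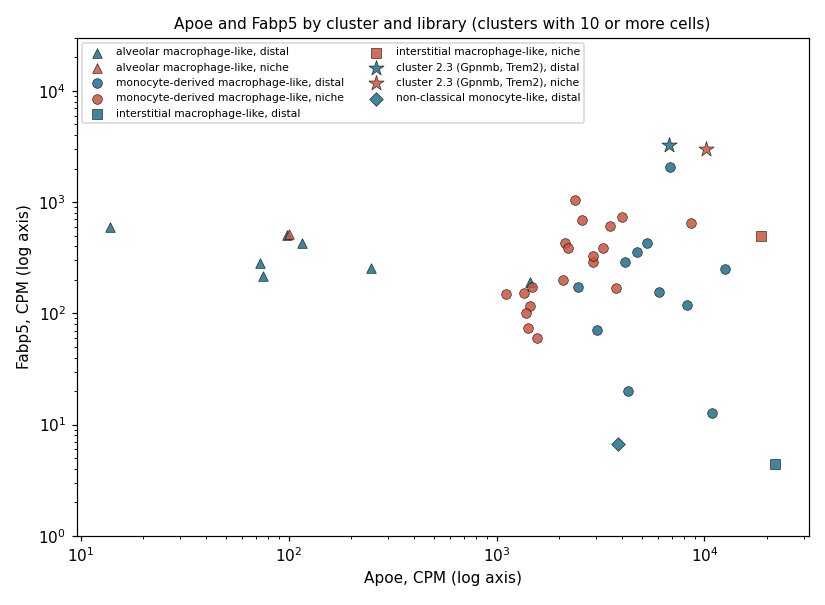
Apoe against Fabp5 (CPM, log axes) for each cluster and library with at least 10 cells. Cluster 2.3 lies at 6761 and 10187 CPM of Apoe with 3276 and 3007 CPM of Fabp5.

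Other classes had fewer cells or followed single cells. Cycling monocyte-derived macrophage-like cells of the niche had less Apoe (-1.15), Fabp4 (0 UMIs) and Fabp5 (-1.82) and more Cd36 (0.81) than the others of that class, against 2.48% of all genes lower and 6.36% higher. Their Apoe was lower in the niche than in the distal library (log2 ratio -0.93, 1.90-fold), as in the main class, against 1.49% of all genes lower and 1.25% higher. In migratory dendritic-like cells, Apoe was called higher in the niche (2.14, 1.69 to 2.66) and Lpl lower (-2.90, -3.90 to -2.09), against 2.33% of all genes higher and 1.26% lower. Both calls rest on few cells: 6 of the 77 niche cells held 297 of 328 Apoe UMIs, and 6 of the 56 distal cells held 57 of 60 Lpl UMIs. Fabp5, their leading member, was at 680 CPM distal and 590 CPM niche, a log2 ratio of -0.21 (-0.43 to 0.02). The 5 distal and 7 niche cells with most Fabp5 held 53.4% and 51.1% of its UMIs in this class. Distal Fabp5 was higher than in distal monocyte-derived macrophage-like cells by 1.42, the only member called higher, and Apoe was lower by a log2 ratio of -6.08. That comparison called 6.13% of all genes higher and 7.86% lower. In distal T cell-like cells Fabp1 was at 49.7 CPM and Lpl at 121 CPM, with 24 of 40 and 30 of 97 UMIs in 1 cell each. The 12 alveolar macrophage markers sum to 345 CPM in distal T cell-like cells, and 1 of them had a UMI in niche T cell-like cells. Their sums were 404 and 154 CPM in distal and niche migratory dendritic-like cells, with Ear6 and Marco at 0 in both. Lpl moved with these sums, which also count any of the markers, such as Itgax, that the cells make themselves. The part of alveolar macrophage RNA in the Lpl level was not tested.

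Genes most like each member in level across 15 pairs of class and library with at least 50 cells were named by the Pearson correlation of log2(CPM + 10) over 7863 genes, as a description, since points share libraries and depth. Apoe was most like Apobec1 (r = 0.92), Zeb2os (0.88) and Slc7a7 (0.87). Fabp1 was most like the alveolar markers Plet1 (0.98), Ear1 (0.98) and Atp6v0d2 (0.97), Lpl like Lipa (0.96), Slc36a4 (0.91) and Mfsd5 (0.90), and Plin2 like Creg1 (0.94), Tnfrsf21 (0.93) and Lmo4 (0.93). Pparg was most like Slc16a10 (0.93), Abcc5 (0.91) and Apoc1 (0.90). Fabp4 was most like Cyth3 (0.94), Agpat4 (0.92) and Ace (0.91), Cd36 like Vwf (0.94), Tle1 (0.92) and Tbkbp1 (0.92), and Fabp5 like Galnt7 (0.84), AA467197 (0.77) and AW112010 (0.77). Among the members themselves the highest were Lpl with Plin2 (0.84), Fabp1 with Lpl (0.78), Plin2 with Pparg (0.78) and Fabp4 with Cd36 (0.73), while Apoe lay between -0.26 and 0.29 with each of the others.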

How the data were processed

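The deposited files hold whole-number UMI counts per gene and barcode, made by the authors and not normalized; their headers name software version 3.0.2 for the distal and cellranger-6.0.0 for the niche matrix. Per the submitters' processing notes, the tools were Bowtie2, RSEM, Seurat 4.1.1 and Cell Ranger 3.02 and the builds GRCm38 and mm10. The gene lists (30149 and 32285 rows) were joined by Ensembl identifier, leaving 29413 genes. GENCODE gene coordinates of GRCm38 and RefSeq promoter windows were used.

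The 8 members, the gene lists and the rules for naming genes were chosen with earlier results of these data known. Cells needed 200 or more genes and no more than 10% of UMIs from mitochondrial genes. Doublet calling (scanpy 1.11.5, rate 0.03) marked 1 cell per library and was taken as not having worked; both calls were removed. Both libraries were clustered together without the members and the lipid lists (134 genes), on 2000 variable genes, 30 components and 20 neighbours, by Leiden at resolution 1.0, and clusters of at least 100 cells again at 0.5, giving 63 clusters. The second clustering and the naming thresholds were chosen with the clusters in view: a marker was present at 0.15 of the highest cluster's level in a share of 0.1 of cells, and a class was named from 3 or more markers if 0.75 of its list was present. Classes needed 50 cells, and those with 30 to 49 were added later.

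UMIs were summed per class and library and given as CPM. Log2 ratios had 0.5 UMI added and exact conditional binomial intervals, shares had Clopper-Pearson intervals, all at 95%. Listed genes were named, at most 3 per list and direction, with at least 100 UMIs and an interval beyond 1.5-fold, by size of ratio; an item this rule names is not reported here. Like genes were the 3 of highest correlation among genes with at least 500 UMIs. The ratio step was tested on simulated data. Cells are not replicates, so no p-value is given. Tools were matplotlib 3.10.9, igraph 0.11.9, leidenalg 0.10.2, scikit-learn 1.9.0, pandas 2.3.3, scipy 1.17.1, numpy 2.4.6 and Python 3.11.15. Alternatives covered filters, doublet scores, clustering, weighting, the CPM total, thinning and the call rule.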

Additional observations from a re-analysis of the deposited data

Results flagged for a closer look

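The niche over distal log2 ratios of Apoe, Fabp5 and Lpl pointed in opposite directions in different cell classes, and the difference between classes was not tested. Apoe was at -1.29 in monocyte-derived macrophage-like cells, -0.93 in their cycling cells and -0.23 in interstitial macrophage-like cells, but at 2.14 in migratory dendritic-like cells, where 6 cells held 297 of 328 niche UMIs. Fabp5 was at 0.90 in monocyte-derived macrophage-like and 6.23 in interstitial macrophage-like cells, the latter with 154 of 174 niche UMIs in 1 cell, and at -1.77 in T cell-like cells, on 3 niche UMIs. Lpl was at 0.68 in cycling monocyte-derived macrophage-like cells, -0.42 in the other monocyte-derived macrophage-like cells, -2.90 in migratory dendritic-like cells and -4.34 in T cell-like cells. The last is a fitted value against 0 niche UMIs and is no bound. In migratory dendritic-like cells, 6 distal cells held 57 of 60 distal Lpl UMIs.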

How the results depend on the processing

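Alternatives were run for the ratios of niche over distal monocyte-derived macrophage-like cells and of distal alveolar and non-classical monocyte-like over monocyte-derived cells, where no called member changed sign, and for 2 shares of cells. The other comparisons had none. The Apoe ratio of niche over distal monocyte-derived macrophage-like cells (-1.29) lay between -1.42 and -1.06 over 14 alternatives. It was -1.35 with equal weight per cell, -1.37 after thinning to 2000 UMIs, -1.18 and -1.09 with at most 5% and 20% mitochondrial UMIs, -1.22 without the highest 5% of doublet scores, -1.17 and -1.40 at Leiden resolutions 0.5 and 2.0, and -1.42 with lipid genes in the clustering. Among alternatives chosen after the data had been seen, it was -1.12 in clusters with 10 cells in both libraries and -1.06 without the second clustering. The Fabp5 ratio (0.90) was 1.48, 1.56, 0.67, 0.70, 0.77 and 0.70 with equal weight, thinning, at most 5%, at most 20%, resolution 0.5 and lipid genes, and 0.75 and 0.37 in the added alternatives. It was not called at 0.67 and 0.37. The cause of these moves was not tested. Members called ranged from 2 to 4 between the libraries, 6 to 7 for alveolar over monocyte-derived cells and 4 to 6 for non-classical monocyte-like over monocyte-derived cells, over 17 alternatives each. The Fabp1 share of alveolar macrophage-like cells was 37.6% at 1000 UMIs and 76.6% with all UMIs, and the Fabp4 share of non-classical monocyte-like cells 32.5% and 57.0%. Intervals cover counting error only, and with 1 library a group no spread between animals can be given. No paired analysis was possible because each group is 1 library.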

Other observations

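B cell-like cells held Apoe in both libraries, at 615 CPM (549 to 688) in 193 distal cells and 503 CPM (358 to 688) in 37 niche cells. It was seen in 90 distal and 17 niche cells, and in 41.9% of 117 distal B cell-like cells at 2000 UMIs. In both distal B cell clusters it was present, at 716 CPM in cluster 11.0 and 546 CPM in cluster 11.1. Distal T cell-like cells had 84.5 CPM of Apoe, in 4.98% of 201 thinned cells, and cycling T cell-like cells 10.3 CPM. In distal B cell-like cells the other members were low: Fabp5 13.8, Plin2 11.8, Cd36 5.90 and Lpl 3.93 CPM, with 0 UMIs of Fabp4 and Pparg. Of the 12 interstitial macrophage markers, 4 had a UMI in distal B cell-like cells and their sum was 17.7 CPM, with C1qb, Folr2, Cd163 and Pf4 at 0. Of the 14 monocyte-derived macrophage markers 10 had a UMI, with a sum of 525 CPM in B cell-like and 321 CPM in T cell-like cells of the distal library, and Fcgr1, Ccr2 and Cx3cr1 were at 0 in the former. These sums also count any listed gene, such as Cd72, that the lymphocytes make themselves. The part of RNA from macrophages in the Apoe level of B cell-like cells was not tested.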
